A study of Gallus gallus with 10 samples.

Results

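The genes described here are 9 genes of the neuronal cytoskeleton and growth cone: MAP1B, MAP2, MAPT, TUBB3, NEFL, NEFM, DCX, STMN2 and GAP43. They were chosen by symbol, as every probe set that the array's annotation or the current symbol of its gene ID assigns to one of them. The 9 genes are among 13051 genes with a named probe set, and their 22 probe sets are among 38439 that were tested. MAP1B lies on the Z chromosome. The other 8 are autosomal: MAP2 on chromosome 7, MAPT on 27, TUBB3 on 11, NEFL and NEFM on 22, DCX on 4, STMN2 on 2 and GAP43 on 1.

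The study measured total RNA from the whole brain of chicken embryos on Affymetrix chicken arrays, with 5 arrays labelled male and 5 labelled female. The labels give no embryonic age, strain or genotype, and the only treatment they name, shared by all arrays, is dissection. They also do not say whether each array came from a separate animal, so the p-values measure the spread between arrays, which may be technical in part.

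A growing neuron builds its axon on bundled microtubules and, later, neurofilaments, and steers it with a growth cone in which microtubules meet an actin-rich edge. MAP1B, MAP2, MAPT and DCX bind and stabilise microtubules, and TUBB3 is a neuronal beta-tubulin that is built into them. STMN2 binds free tubulin and promotes microtubule turnover in growth cones. NEFL and NEFM are subunits of the neurofilament, and GAP43 is a membrane protein of the growth cone. In birds the male carries a pair of Z chromosomes and the female a Z and a W, and no mechanism equalises Z expression across the whole chromosome, so many Z genes have more RNA in males.

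Levels are given as log2(intensity + 16), and a difference is the male mean minus the female mean on that scale. Median intensity over the tested probe sets was 594 to 721 per array, and the arrays correlated with one another at 0.918 to 0.946 over all tested probe sets. A probe set is called expressed where its mean was above log2 9.33, the median over all tested probe sets. Probe sets for avian viruses served as a gauge of background, with a median level of log2 6.16 and a 95th percentile of log2 7.62. All 6 measured neuron markers (SNAP25, SYT1, SYP, ELAVL4, SNCB and CELF4) were expressed. So were all measured progenitor (9), astrocyte (7), red cell (6), vessel (7) and choroid plexus (5) markers, and 8728 of 12228 autosomal genes. The count is thus not particular to neurons. Of the other marker lists, 4 of 5 oligodendrocyte, 4 of 5 microglia and leukocyte and 2 of 5 muscle markers were expressed.

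None of the 9 genes passed the limma test for a difference between male and female brains at a Benjamini-Hochberg adjusted p of 0.05. The count was 0 of 22 probe sets, where 0.799% of all tested probe sets were called, and 0 of 9 genes, where 1.79% of all genes were called. Split by direction, 0.643% of all probe sets and 1.59% of all genes were called higher in males, and 0.156% and 0.207% were called higher in females. The lowest adjusted p was 0.836 among the 22 probe sets and 0.903 among the 9 genes. No member passed an unadjusted p of 0.05 either, against 6.85% of all probe sets and 7.62% of all genes. Male and female arrays overlapped at all 22 probe sets, and the difference was above 0 at 12 of them and below 0 at 10. Groups without overlap were found in only 0.756% of expressed autosomal genes, but in 56.6% of expressed Z genes. The median difference over the 9 genes was 0.01 on the log2 scale, beside -0.02 over all genes. The 7 expressed autosomal members lay between -0.08 and 0.07. Of the 22 probe sets, 20 were expressed, and the exceptions were the single GAP43 probe set and 1 of the 5 for MAPT.

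**Figure D1:**
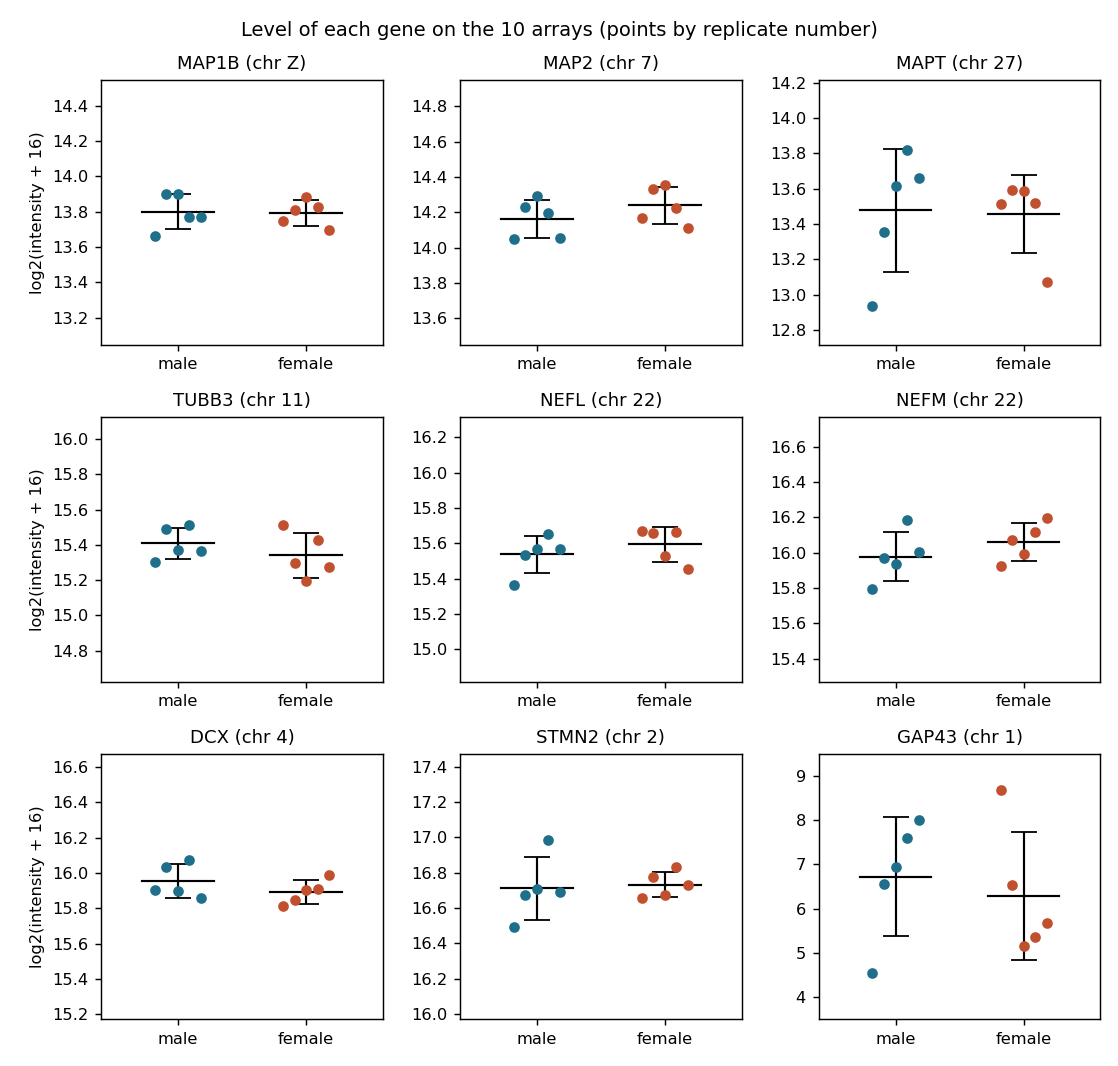
Level of each of the 9 genes on each array, in log2(intensity + 16), with male and female arrays side by side, 5 of each; the bars mark group means. Males and females overlap in every gene, and GAP43 is the gene whose arrays spread most widely, from 4.53 to 8.69.

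MAP1B, the Z-linked member, is a microtubule-binding protein that is abundant in growing axons. Its male arrays read 13.66, 13.90, 13.90, 13.77 and 13.77 (mean 13.80 ± 0.10, SD, n = 5). Its female arrays read 13.75, 13.81, 13.89, 13.83 and 13.70 (mean 13.79 ± 0.07, SD, n = 5). The highest array was a male, the lowest was also a male, and the female values lay within the male range. The difference was 0.01 (SE 0.07, limma adjusted p = 0.989), with a 95% interval from -0.15 to 0.16. On the intensity scale that is a male to female ratio of 1.005, with an interval of 0.904 to 1.12. These values come from the fit over genes. In the fit over all probe sets, the same probe set had an SE of 0.08 and an interval from -0.18 to 0.19. The other MAP1B probe set gave 0.05 there (SE 0.15), with a wider interval of -0.29 to 0.39.

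Many expressed Z genes rose in males relative to females, and MAP1B was not among them. Of the 445 expressed Z genes, 44.7% were called higher in males, and in 56.4% every male array was above every female array; the groups did not overlap, in either direction, in 56.6% of expressed Z genes and 0.756% of expressed autosomal genes. The median expressed Z gene differed by 0.47 between the sexes, a ratio of 1.39. This is above 0.16, the upper end of the MAP1B interval in the fit over genes. The difference of 371 of the 445 expressed Z genes (83.4%) was above that upper end. Only 34 of the 445 (7.64%), MAP1B included, had a difference at or below that of MAP1B. Differences within 0.1 of 0 were found for 38 expressed Z genes (8.54%), while 61.4% of expressed autosomal genes had one.

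**Figure D2:**
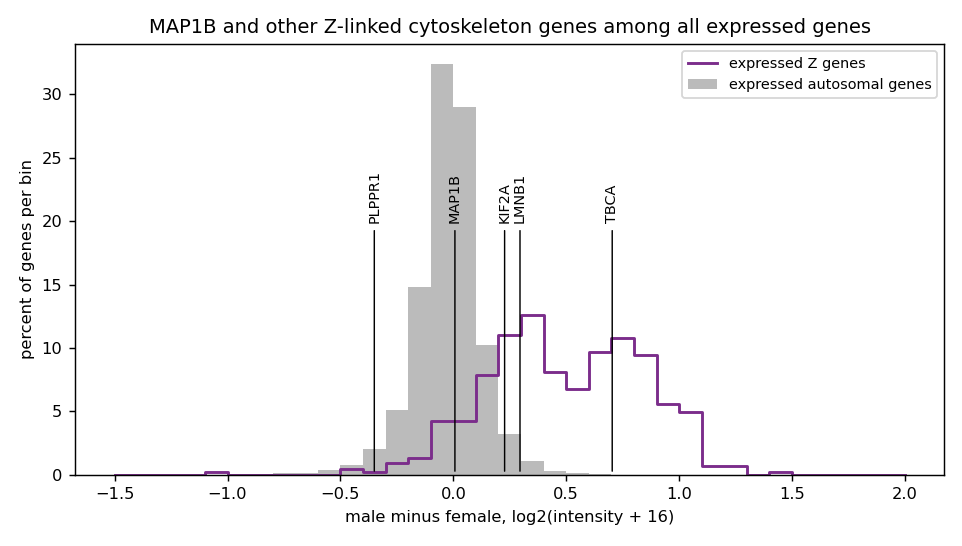
Distribution of the male minus female difference, in log2(intensity + 16), over expressed Z genes and expressed autosomal genes, as percent of genes per bin, with vertical lines at the Z-linked cytoskeleton genes (PLPPR1 is marked although its level is below the expressed limit). MAP1B at 0.01 lies with the bulk of the autosomal genes, and TBCA at 0.70 lies with the larger Z differences.

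Within each array, MAP1B was then set against reference values of the same array, which removes any shift of a whole array. Against the median of expressed autosomal genes, the male minus female difference of MAP1B was 0.02, with a two-sided exact permutation p of 0.738 over 252 arrangements of the arrays. Against the median of the other expressed Z genes, a comparison added after the data had been seen, MAP1B stood 1.72 ± 0.12 above that median on male arrays and 2.30 ± 0.10 above it on female arrays (SD, n = 5). All 5 females exceeded all 5 males on this measure. Its difference of -0.57 had an exact permutation p of 0.00794, the smallest that 5 against 5 arrays can give, and 0.0198 after adjustment over the 5 added comparisons. With MAP1B read by its other probe set the difference was -0.53, with the same exact permutation p of 0.00794. Expressed Z genes had already been seen to differ by a median of 0.47, while MAP1B itself differed by 0.01. These p-values thus largely reflect the sex difference of the reference and are not a separate test of MAP1B.

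The expressed genes next to MAP1B in the order along Z differed among themselves. On one side stand MRPS27, a mitochondrial ribosomal protein, then PTCD2, TNPO1, a nuclear import receptor, FCHO2, an endocytosis protein, and TMEM171. On the other side stand PGM5, CBWD1, KANK1, SMARCA2, a chromatin remodeller, and VLDLR, a reelin receptor. Of these 10 genes, 4 rose in males relative to females in limma, beside 44.7% of all expressed Z genes. They were MRPS27 by 0.70 (SE 0.07, adjusted p = 0.000386), PTCD2 by 0.76 (SE 0.07, adjusted p = 0.000414), TNPO1 by 0.80 (SE 0.11, adjusted p = 0.00345) and CBWD1 by 0.79 (SE 0.09, adjusted p = 0.000925). FCHO2, at 0.67, had every male above every female but a limma adjusted p of 0.325. Every male was above every female in 5 of the 10 genes, beside 56.4% of all expressed Z genes. TMEM171 was at 0.31, SMARCA2 at 0.10, VLDLR at 0.06, KANK1 at 0.04 and PGM5 at -0.25, and none of the 5 passed. The median of the 10 neighbours was 0.49.

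MAP1B thus lay between a gene that was higher in males, MRPS27, and one that did not pass, PGM5. The calls of MRPS27, PTCD2 and TNPO1 rest on the brightest probe set of each gene, and other probe sets of the same genes went as low as -0.02, -0.70 and -0.63. With the mean over probe sets, their differences were 0.34, 0.06 and 0.31 and none of these 3 passed. The gene order is that of the current reference annotation, whose assembly is later than the array design.

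**Figure D3:**
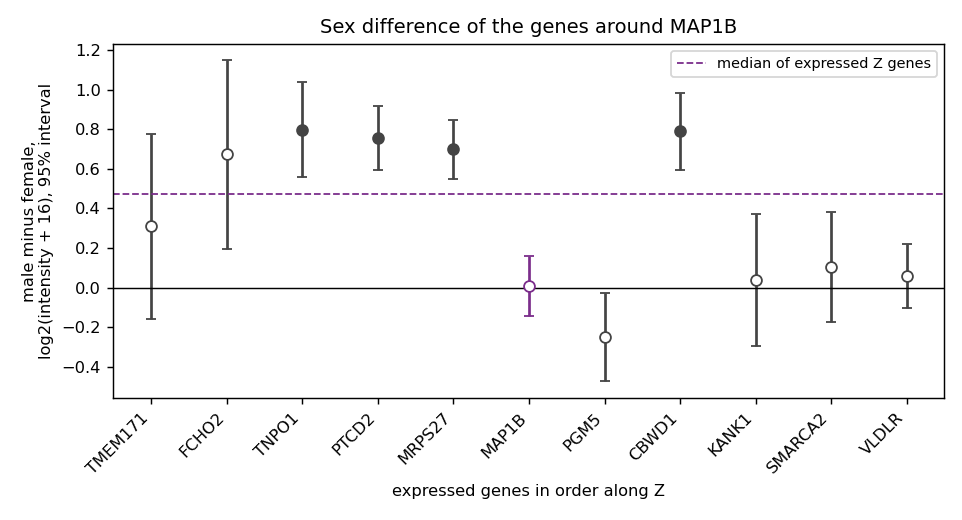
Male minus female difference, in log2(intensity + 16) with its 95% interval, of MAP1B and the 5 expressed genes on each side of it in order along Z. MAP1B at 0.01 has a narrow interval around 0, while CBWD1, MRPS27, PTCD2 and TNPO1, drawn as filled points because they passed the test, lie between 0.70 and 0.80; the dashed line is the median of expressed Z genes.

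No sex difference was detectable in the other microtubule-binding members at this number of arrays. MAP2, which marks dendrites and the cell body, read 14.05, 14.23, 14.29, 14.19 and 14.05 in males and 14.17, 14.33, 14.36, 14.23 and 14.11 in females. The groups overlapped over most of their range, and only 1 male array was above the female mean. The difference was -0.08 (SE 0.08, limma adjusted p = 0.903), with an interval from -0.25 to 0.10, and the other MAP2 probe set gave -0.04.

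MAPT, the axonal protein tau, read 12.94, 13.35, 13.62, 13.82 and 13.66 in males and 13.52, 13.59, 13.59, 13.52 and 13.07 in females. Both the highest and the lowest array were male. The difference was 0.02 (SE 0.17, limma adjusted p = 0.987), and its interval, from -0.37 to 0.41, was the widest among the expressed members. The 5 MAPT probe sets did not show one direction: the 4 expressed ones gave 0.02, 0.29, 0.39 and -0.35, none of which passed. The remaining one, at a mean level of log2 7.56, was below the 95th percentile of the virus probe sets.

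DCX, doublecortin, which marks young migrating neurons, read 15.90, 16.04, 15.90, 16.07 and 15.86 in males and 15.81, 15.85, 15.91, 15.91 and 15.99 in females. The groups overlapped, with the top values in males and the bottom values in females. The difference was 0.06 (SE 0.07, limma adjusted p = 0.907), with an interval from -0.08 to 0.21. All 5 DCX probe sets were expressed, and their differences ran from -0.07 to 0.06.

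TUBB3 read 15.30, 15.49, 15.37, 15.51 and 15.36 in males and 15.51, 15.30, 15.19, 15.43 and 15.27 in females. The difference was 0.07 (SE 0.08, limma adjusted p = 0.918), with an interval from -0.11 to 0.24 and overlapping groups. Its only probe set carries the array maker's suffix for possible cross-hybridisation, so it may also have read other tubulins.

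STMN2 read 16.49, 16.68, 16.71, 16.99 and 16.69 in males and 16.65, 16.77, 16.67, 16.83 and 16.73 in females. The male values surrounded the female values on both ends. The difference was -0.02 (SE 0.09, limma adjusted p = 0.979), with an interval from -0.22 to 0.18. The second STMN2 probe set, the one without a cross-hybridisation suffix, gave 0.13 (SE 0.10) in the fit over all probe sets. The direction thus depended on the probe set.

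NEFL, the light neurofilament subunit, read 15.36, 15.54, 15.57, 15.65 and 15.57 in males and 15.67, 15.66, 15.53, 15.67 and 15.45 in females. NEFM, the medium subunit, read 15.79, 15.97, 15.94, 16.19 and 16.003 in males and 15.93, 16.07, 15.995, 16.12 and 16.20 in females. In both subunits the lowest array was the same male, replicate 1, and the remaining arrays overlapped. The difference was -0.06 for NEFL (SE 0.07, limma adjusted p = 0.921) and -0.08 for NEFM (SE 0.08, limma adjusted p = 0.904). The 3 NEFM probe sets gave -0.08, -0.06 and -0.08.

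GAP43 was not well above background on these arrays. Its single probe set read 4.53, 6.55, 6.94, 7.59 and 7.99 in males and 8.69, 6.54, 5.14, 5.35 and 5.66 in females. Its mean of log2 6.50 was above that of only 65.3% of the virus probe sets. The highest array was a female and the lowest a male, and the difference of 0.45 had an SE of 0.82 (limma adjusted p = 0.953), so the arrays do not measure a sex difference of GAP43.

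**Figure D4:**
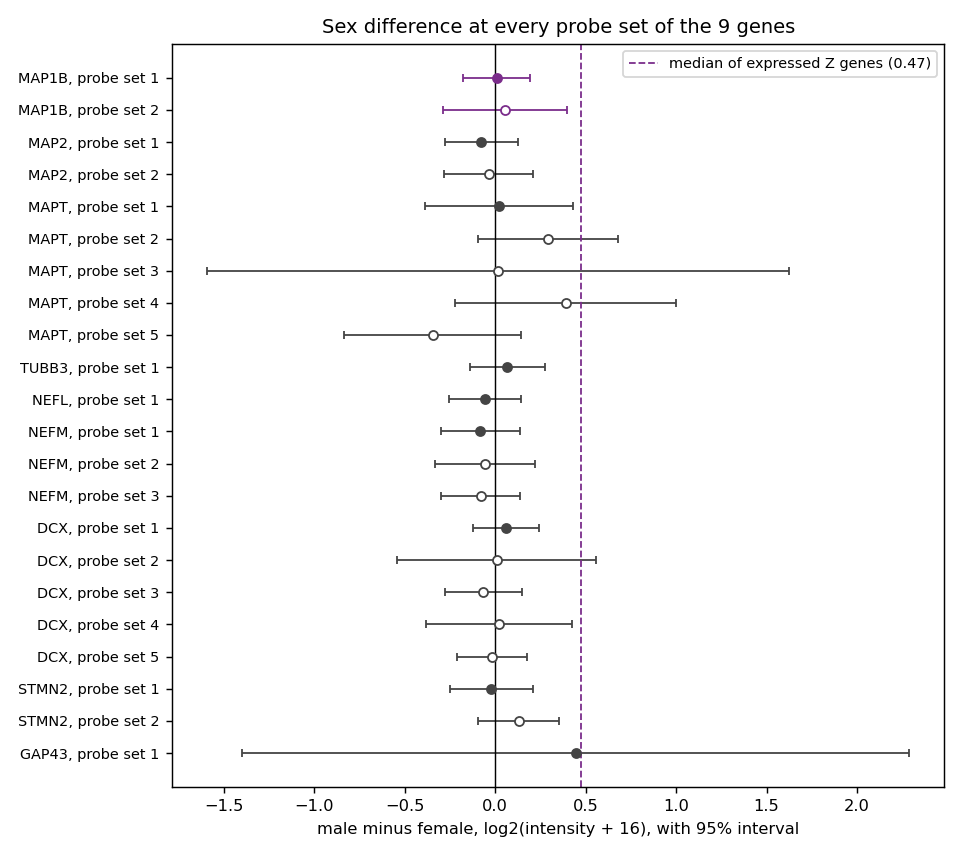
Male minus female difference with its 95% interval, in log2(intensity + 16), at each of the 22 probe sets of the 9 genes; filled points mark the probe set by which a gene was read, and the dashed line is the median of expressed Z genes at 0.47. All intervals cover 0; those of GAP43 and of the dim MAPT probe set are the widest.

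MAP1B was also set against each autosomal member within each array, to ask directly whether its sex difference departed from theirs. The difference was 0.08 against MAP2, -0.01 against MAPT, -0.06 against TUBB3, 0.06 against NEFL, 0.09 against NEFM, -0.05 against DCX and 0.03 against STMN2. The lowest two-sided exact permutation p was 0.0397, for MAP2, and became 0.317 after adjustment over 8 comparisons. The other 6 had exact permutation p-values from 0.333 to 0.913. The eighth comparison, with GAP43, is not read, because that probe set was not well above background.

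One male array, replicate 1, stood low in these genes. Its title, unlike those of the other arrays, gives no sex or letter, so its sex came from the description label alone. Male replicate 1 was the lowest of the 10 arrays in 6 of the 8 expressed members, MAP1B, MAP2, MAPT, NEFL, NEFM and STMN2, whereas 15.9% of expressed autosomal genes were lowest there. Over the expressed members its median deviation from the mean of all arrays was -0.18, against -0.01 over expressed autosomal genes. In related lists it was lowest in 10 of 27 expressed actin regulators, with a median deviation of -0.09, and 6 of 18 tubulins and cofactors, at -0.12. It was lowest in 7 of 19 kinases and phosphatases, but their median deviation was 0.03. Of stathmins and severing proteins it was lowest in 3 of 10, and of the spectrin and ankyrin skeleton in 3 of 10. Of membrane and adhesion proteins it was lowest in 5 of 22. In others it was lowest in 3 of 24 expressed microtubule-associated proteins and 1 of 9 intermediate filament proteins and linkers. It was also the lowest array in 5 of 7 expressed astrocyte markers, with a median deviation of -0.32, and in 2 of 4 oligodendrocyte markers, but in 2 of 6 neuron markers, with a median deviation of -0.05. The neuron markers lowest there were SNCB at 14.49 and SNAP25 at 16.33, while ELAVL4 was highest there, at 15.43. The median of the virus probe sets was log2 5.41 on this array and 5.71 to 6.32 on the others. What part these play in the low values was not tested. Male replicate 4 was highest in 3 of the 8 expressed members, with a median deviation of 0.14, where 9.52% of expressed autosomal genes were highest; female replicate 1 was highest in 2 of the 8, with a median deviation of -0.04. Without male replicate 1 the MAP1B difference was 0.04, and still none of the 9 genes or 22 probe sets passed. In bulk tissue, fewer cells of a type and less RNA per cell cannot be told apart.

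The genes whose profile over the 10 arrays was nearest to that of MAP1B, by the root mean square difference of mean-centred levels, were INPP4A on chromosome 1 (0.033), LAMTOR3 on chromosome 4 (0.0344) and PHYHIPL on chromosome 6 (0.042). The median over all expressed genes was 0.181, and MAP1B itself varied by 0.0786 around its mean. All 3 are autosomal, as are most expressed genes: 8728 are autosomal and 445 lie on Z. The profiles include any difference between the sexes, so Z genes that differ by sex lie further from MAP1B.

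Around the 9 genes, 181 further genes of the cytoskeleton and growth cone were listed, of which 150 were measured. A single one passed in limma, TBCA, against 1.79% of all genes. It rose in males, none rose in females, 70 of the 150 differences were above 0, and their median was -0.01. At an unadjusted p of 0.05, 6 of the 150 passed, against 7.62% of all genes.

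TBCA, tubulin cofactor A, is a chaperone that captures newly folded beta-tubulin, and its gene is Z-linked. It read 14.89, 14.87, 14.87, 14.97 and 14.89 in males and 14.13, 14.27, 14.16, 14.27 and 14.14 in females. Every male array was above every female array by a margin larger than the spread within either sex. The difference was 0.70 (SE 0.06, limma adjusted p = 0.000135), a ratio of 1.63, from a single probe set. Among expressed Z genes 44.7% were called in this direction, and among expressed autosomal genes 0.0229%. The MAP1B difference was lower than that of TBCA by 0.70, a comparison added after the data had been seen, and no male array overlapped a female array on this measure (exact permutation p = 0.00794, adjusted 0.0198). TBCA had already passed in these data with its groups apart, so this p largely restates the TBCA difference and is not a separate test of MAP1B.

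KIF2A, a kinesin that takes microtubule ends apart, is another Z-linked gene of the lists. It read 14.31, 14.22, 14.29, 14.35 and 14.34 in males and 14.05, 14.14, 13.99, 14.05 and 14.15 in females. Every male was above every female, as in 56.4% of expressed Z genes, but the difference of 0.23 (SE 0.06) had a limma adjusted p of 0.125. Its dimmer probe set gave 1.66. With a variance trend in limma, its adjusted p was 0.0272. Set against KIF2A within each array, a comparison also added after the data had been seen, the male minus female difference of MAP1B was -0.22 (exact permutation p = 0.0476, adjusted 0.0794). With the mean over probe sets it was -0.91 (exact permutation, adjusted p = 0.0496), and without male replicate 2 it was -0.27 (exact permutation, adjusted p = 0.0397). Without male replicate 1 it was -0.18 (exact permutation, adjusted p = 0.159). With each array left out, the unadjusted exact permutation p ran from 0.0238 to 0.0952, so whether it passed depended on the setting. KIF2A had already been seen with its groups apart, while MAP1B itself differed by 0.01. These p-values thus largely restate the KIF2A difference and are not a separate test of MAP1B.

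The remaining Z-linked genes of the lists did not pass. LMNB1, a nuclear lamin, differed by 0.30 (SE 0.13, limma adjusted p = 0.617). PLPPR1, a membrane protein of neurite growth, differed by -0.35 (SE 0.29, limma adjusted p = 0.880) at a level below the expressed limit. Against these genes within each array, again added after the data had been seen, the MAP1B difference was -0.29 for LMNB1 (exact permutation p = 0.143, adjusted 0.179) and 0.36 for PLPPR1 (exact permutation p = 0.270, adjusted 0.270), in the opposite direction. The LMNB1 comparison was -0.32 with the mean over probe sets (exact permutation, adjusted p = 0.0265) and -0.41 without male replicate 3 (exact permutation, adjusted p = 0.0397). Without male replicate 1 it was -0.18 (exact permutation, adjusted p = 0.337). With each array left out, its unadjusted exact permutation p ran from 0.0238 to 0.270. LMNB1 had already been seen to differ by 0.30, so its comparisons largely restate that difference and are not a separate test of MAP1B.

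Of 26 measured microtubule-associated proteins, none passed, 10 were above 0 and the median was -0.03. The lowest p-values in this list belonged to CLIP2, which binds growing microtubule ends, and to DCLK3, a doublecortin-like kinase. CLIP2 was at -0.15 (SE 0.06), and its probe sets ran from -0.91 to 0.04. DCLK3 was at -0.45 (SE 0.22) and a level below the expressed limit. Of 10 stathmins and microtubule-severing proteins, none passed, 3 were above 0 and the median was -0.05. KIF2A had the lowest p here, followed by KATNA1, a katanin subunit that severs microtubules, at -0.14. Among 21 tubulins and tubulin cofactors, TBCA passed, 9 were above 0 and the median was -0.03.

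Of 10 intermediate filament proteins and linkers, none passed, 3 were above 0 and the median was -0.06. LMNB1 had the lowest p, followed by NES, the progenitor filament nestin, at -0.15. Among 11 genes of the spectrin and ankyrin skeleton under the axonal membrane, none passed, 7 were above 0 and the median was 0.03. The lowest p-values were those of EPB41L3 at -0.19 and EPB41 at 0.17, both of which link spectrin and actin to the membrane. Other probe sets of these genes reached 0.49 for EPB41L3 and -0.03 for EPB41.

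Of 24 membrane and adhesion proteins of the growth cone, none passed, 16 were above 0 and the median was 0.03. CADM2, a cell adhesion molecule, was at 0.24 and RTN1, a reticulon of the endoplasmic reticulum, at 0.14. Among 29 actin regulators of the growth cone, none passed, 8 were above 0 and the median was -0.04. ENAH, which promotes actin filament growth, was at 0.17, and its other probe set gave -0.10. WASF3, an activator of branched actin, was at -0.57 (SE 0.27). The WASF3 level was below the expressed limit, and another of its probe sets gave 0.81. Of 19 kinases and phosphatases that act on the cytoskeleton, none passed, 14 were above 0 and the median was 0.05. CAMK2G was at 0.20, with another probe set at -0.04. PPP2CA, a catalytic subunit of a phosphatase that acts on tau, was at 0.10.

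**Figure D5:**
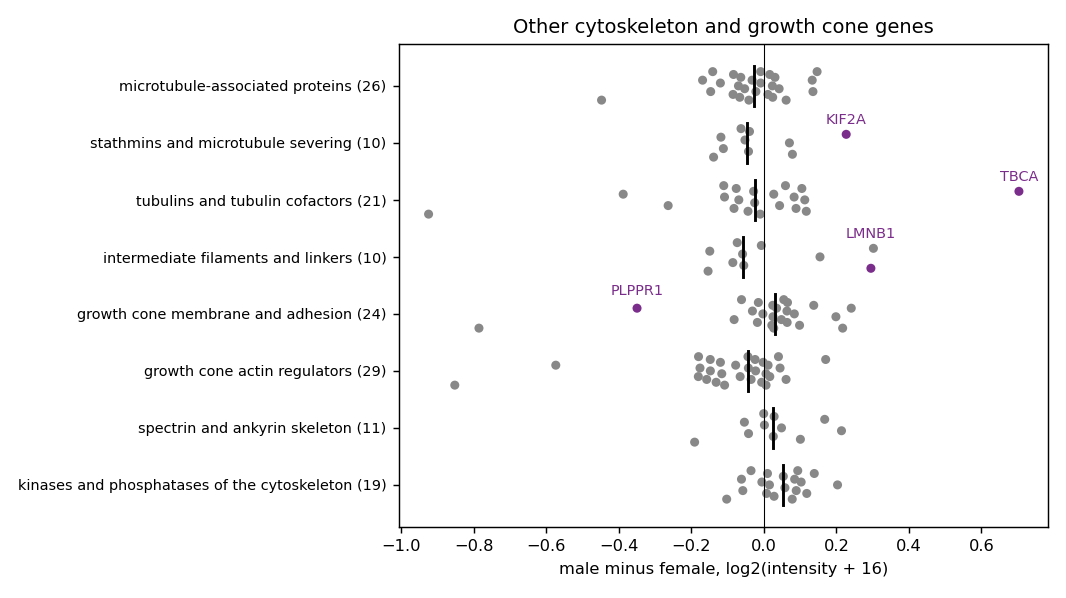
Male minus female difference, in log2(intensity + 16), of each measured gene in the 8 cytoskeleton and growth cone lists, with the median of each list marked. The medians lie between -0.06 and 0.05, and TBCA at 0.70 is the gene that passed the test.

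Markers of the cell types that whole brain can hold were read in the same way. In 9 marker lists, for neurons, progenitors, astrocytes, oligodendrocytes, microglia, red cells, vessels, choroid plexus and muscle, the median differences ran from -0.12 in choroid plexus to 0.05 in vessels and microglia. Choroid plexus had 1 of 5 markers above 0, with CLIC6 at -0.78 (SE 0.24, limma adjusted p = 0.294) and every female above every male. Groups without overlap, in either direction, were found in 0.756% of expressed autosomal genes. The other choroid plexus markers overlapped, with differences from -0.15 to 0.03. The red cell list had 1 of 6 genes above 0 with a median of -0.11. One of its genes, ALAS1 at -0.03, was matched only as a synonym of the listed ALAS2, so it may not mark red cells. A single marker of these lists passed in limma, against 1.79% of all genes: the vessel receptor FLT1 was higher in males by 0.32 (SE 0.06, adjusted p = 0.0338). Another of its 3 probe sets gave -0.27, and none of the 3 passed over all probe sets. Of expressed Z genes 44.7% were called higher in males, and of expressed autosomal genes 0.0229%. The 6 neuron markers had a median difference of 0.03, and their summed intensity was 213851 to 233565 in males and 209391 to 222197 in females.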

How the data were processed

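Each of 10 Affymetrix chicken arrays had 1 deposited value per probe set, an intensity on a linear scale; the authors' summarisation and scaling steps were not given in the sources used here. The deposited intensity was converted to log2 after adding 16, with no further normalization. Groups came from the description label. The 96 control probe sets were left out. Of the 38439 tested, 27168 have 1 gene symbol in the platform annotation, 177 several and 11094 none. Where a gene had several probe sets, the one brightest on average stood for it. Chromosomes and gene order came from RefSeq's table (bGalGal1.mat.broiler.GRCg7b), in which 12872 of 13051 genes were matched.

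The male minus female contrast was fitted in limma 3.58.1 (R 4.3.3), and p-values were adjusted by Benjamini-Hochberg across every tested probe set, or across every gene. On simulated data only the limma fit and its adjustment were tested, with a change larger than the difference of any member. The choice of probe sets, the lists and the permutation comparisons were not tested in this way. Single values were compared by exact permutation. The number of arrays limits the precision.

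The text names all 9 members, list genes past the threshold, Z-linked list genes, the 2 lowest p-values of a list with none past it, the 5 expressed genes on each side of MAP1B, and the 3 profiles nearest to it. Members and lists were chosen with earlier results of these data known. Alternatives were quantile normalization, autosomal centring, pseudocounts of 1 and 64, filters on dim probe sets, no cross-hybridising probe sets, means over probe sets, a variance trend with and without robust fitting, array weights, a block by title letter, and leaving out each array.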

Additional observations from a re-analysis of the deposited data

Results flagged for a closer look

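Within groups of 5 arrays, an array was singled out where its gap to the nearest other array was too large a part of the range of its group by Dixon's test at the 95% level. Of 96 groups tested, 11 held such an array; chance flags about 1 in 20 groups. Among the members, female replicate 5 was low at the first MAPT probe set, at 13.07 where the other females read 13.52 to 13.59. Female replicate 1 was high at the third NEFM probe set, at 14.60 where the others read 14.40 to 14.45, and low at the third DCX probe set, at 13.01 where the others read 13.33 to 13.40. Female replicate 2 was high at the fourth DCX probe set, at 13.52 where the others read 12.98 to 13.08.

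Among the genes next to MAP1B, male replicate 1 was high in FCHO2, at 12.33 where the other males read 11.32 to 11.53, and low in MRPS27, at 13.55 where the others read 13.66 to 13.70. Male replicate 2 was low in CBWD1, at 12.13 where the others read 12.31 to 12.37, and female replicate 4 was low in KANK1, at 10.68 where the others read 11.16 to 11.25. Among the list genes, female replicate 3 was high in KATNA1, at 11.52 where the others read 11.19 to 11.26. Male replicate 5 was low in NES, at 12.30 where the others read 12.47 to 12.52, and male replicate 4 was high in TBCA, at 14.97 where the others read 14.87 to 14.89.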

How the results depend on the processing

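The count of members past the threshold stayed at 0 under every alternative run and with each array left out. The MAP1B difference was -8.3e-05 with quantile normalization and -0.0179 to 0.0416 with each array left out. The comparison of MAP1B with the median of other Z genes ran from -0.40 to -0.59 under the alternatives and from -0.54 to -0.61 with each array left out. MAP1B minus STMN2 became -0.122 without cross-hybridising probe sets and -0.0241 with the mean over probe sets, which also turned MAP1B minus DCX to 0.0283. With each array left out, MAP1B minus the autosomal median ran from -0.0047 to 0.059, minus STMN2 from -0.0053 to 0.10, minus MAPT from -0.115 to 0.0787 and minus TUBB3 from -0.115 to 0.00014. The cause of these turns was not tested, and none of these values passed.

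The count of list genes past the threshold was 2 with a variance trend, robust or not, where KIF2A joined TBCA. Title letters B to E occur in both sexes, but the labels do not say what a letter stands for. Arrays with the same letter correlated at only -0.03 to 0.09 in their deviations, which does not settle whether they share more than a letter. With the letter as a replicate block on these 8 arrays the count was 0, and 1 without the block. TBCA, MRPS27, PTCD2, TNPO1 and CBWD1 all lost their call under the block (adjusted p from limma 0.0865 to 0.173, differences 0.68 to 0.80) and passed on the same arrays without it (0.00309 to 0.0147). The count stayed at 1 with each array left out.

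Single genes turned sign as follows, none past the threshold in either direction. Without cross-hybridising probe sets STMN2 was 0.13, EPB41L3 0.49 and WASF3 0.81; with the mean over probe sets they were 0.0540, 0.0187 and 0.0770, and SMARCA2 was -0.21. On arrays B to E, with or without the block, NEFL was 0.0043, STMN2 0.0138 and VLDLR -0.0074. With each array left out, STMN2 ran from -0.0901 to 0.0331, MAPT from -0.0754 to 0.157 and KANK1 from -0.0658 to 0.0944. GAP43 has no value under the filters on dim probe sets, and TUBB3 and MAP2 have none without cross-hybridising probe sets.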
